A study of Mus musculus with 29 samples.

Results

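The 7 genes described here encode the receptors of the Hedgehog signal and the proteins that carry it to the nucleus: the receptor Ptch1, the transducer Smo, the ligand-binding antagonist Hhip, the Gli-binding protein Sufu and the transcription factors Gli1, Gli2 and Gli3. They were chosen by name, though with earlier results of these data known. All 7 were found among the 23337 genes of the count files and passed the filter on low counts in every comparison. The 29 RNA sequencing libraries came from C57BL/6 mouse embryos at E9.0 that carry a Dll1-YFP mark, which labels cells of the lineage that has expressed Dll1, a gene of the presomitic mesoderm. Presomitic mesoderm is the unsegmented tissue from which somites, the blocks that give rise to vertebrae, ribs and muscle, bud off.

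In culture, Dll1-lineage cells collected by FACS from presomitic mesoderm were kept without added molecules (CTRL, 4 libraries) or with LDN and SAG together (DIR, 4 libraries), a pair of molecules used to induce sclerotome. SAG is an agonist of Smo, and LDN is the usual short name of a blocker of BMP type I receptors. Since no library had SAG without LDN, what each did cannot be told apart. Uncultured YFP-positive cells, also collected by FACS, came from presomitic mesoderm with the most recently formed somite (SOMA, 3 libraries), from somites 2 to 5 (SOMB, 4 libraries), from somites 6 to 9 (SOMC, 4 libraries), and from somite 10 onward (SOMD, 4 libraries, whose last somite the labels give as 13, 14, 15 and 16 in turn). These last numbers run with the replicate number, and whether they are true extents or an error of entry is not known, so that no value is read by them. RNA was taken straight from unsorted trunk tissue of mutant (MUT, 3 libraries) and wild-type (WT, 3 libraries) embryos. PEAT, a long noncoding RNA, is named in the title of the series, but the labels do not say which allele MUT carries. The labels do not say whether replicates came from separate embryos or cultures, so that p-values measure only the spread between these libraries, which may be technical. A library is named below by its group and replicate number, as in SOMA1.

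Hedgehog proteins bind Ptch1, which otherwise holds Smo inactive, and Smo then acts in the primary cilium to release the Gli proteins from Sufu. Gli2 is the main activator of the first response, Gli3 is mostly cut into a repressor when no signal is present, and Gli1 is itself a target that acts as an activator. Ptch1, Hhip and Gli1 are among the genes that Hedgehog signalling raises in most tissues, so that Ptch1 and Hhip, which both take up ligand, form a negative feedback. In the embryonic trunk, Shh made by the notochord and floor plate acts on the ventral somite, which becomes the sclerotome and expresses Pax1.

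Levels are given as CPM, a gene's share of its library's counts on the usual scale, with library sizes scaled by TMM (trimmed mean of M-values) over all 29 libraries, with the SD over libraries. Library totals ran from 11541131 to 44363411 counts in genes, and the counts of the 7 genes ran from 62 (Hhip in SOMA4) to 11287 (Ptch1 in DIR2). SOMC1 with SOMC4, and SOMD1 with SOMD4, differed by 1.95 and 1.91 in chi-square per degree of freedom over genes, against at least 9.24 in every other pair of 1 group. These pairs differ by more than sampling noise and stay as 4 libraries, with a fit that sums each pair given as an alternative. The multi-mapped share, that of alignments listed as not unique, was 22.3 to 25.4% in 3 cultures (CTRL1, DIR1, DIR2), against 15.9 to 19.5% in the remaining 5. In the trunk libraries this share was 38.8 to 40.6%, above the 15.9 to 25.4% of all sorted and cultured libraries. The share listed as ambiguous was 0.584 to 0.633% in the trunk, against 1.29 to 1.85%. The no-feature share, that of reads outside annotated genes, was 12% to 12.8% in replicate 1 of each SOM group, SOMC4 and SOMD4, and 7.57 to 10.7% in the remaining 9 SOM libraries. The trunk libraries held summed levels of 6 erythroid markers of 965 to 2694 CPM, against 3.83 to 84.5 CPM in the sorted and cultured libraries, and of 10 neural tube markers of 256 to 419 CPM, against 40.7 to 164 CPM. The 9 paraxial mesoderm markers summed to 462 to 967 CPM in the sorted and cultured libraries and to 599 to 692 CPM in the trunk. Tbx6 and Msgn1, which mark presomitic mesoderm, had means of 67.8 and 30.4 CPM in SOMA, 45.3 and 29.5 CPM in CTRL, 59.8 and 20.5 CPM in DIR, and 0.607 and 0.108 CPM in SOMD. Between WT and MUT the targeted transcript could be checked only as far as the title goes: AI646519, the symbol matched to PEAT, had 25, 18 and 61 counts in the WT libraries and 0 in each MUT library.

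In the GRCm38 build (GENCODE M21), Ptch1 lies on chromosome 13 from 63508328 to 63573598 on the minus strand, and Smo on chromosome 6 from 29735503 to 29761365 on the plus strand. Hhip lies on chromosome 8 from 79965851 to 80058006 on the minus strand, and Sufu on chromosome 19 from 46396896 to 46488804 on the plus strand. Gli1 lies on chromosome 10 from 127329882 to 127341974 and Gli2 on chromosome 1 from 118834132 to 119053619, both on the minus strand. Gli3 lies on chromosome 13 from 15463235 to 15730026 on the plus strand. The libraries do not mark strand, so reads of genes on the opposite strand cannot be told apart where exons overlap: 62 bases of Gli1 exons overlap Arhgap9 and 265 bases the antisense gene Gm47200, 175 bases of Hhip overlap Gm27820, and 188 bases of Gli3 overlap Gm6556.

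The promoters of Hhip and Gli2 are shown because these were the members that passed the test in the same comparison and direction. They are the 250 bases before each gene's start in RefSeq (GRCm38.p6), chr8:80058009-80058258 and chr1:119053620-119053869, both on the minus strand and written 5′ to 3′ in the gene's direction. No letter is in capitals because no match was found.
Hhip promoter: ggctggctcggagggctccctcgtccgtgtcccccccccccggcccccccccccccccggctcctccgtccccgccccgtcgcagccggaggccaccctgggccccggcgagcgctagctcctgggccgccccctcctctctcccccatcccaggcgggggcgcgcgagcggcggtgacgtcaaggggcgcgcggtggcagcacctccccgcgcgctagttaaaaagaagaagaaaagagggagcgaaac
Gli2 promoter: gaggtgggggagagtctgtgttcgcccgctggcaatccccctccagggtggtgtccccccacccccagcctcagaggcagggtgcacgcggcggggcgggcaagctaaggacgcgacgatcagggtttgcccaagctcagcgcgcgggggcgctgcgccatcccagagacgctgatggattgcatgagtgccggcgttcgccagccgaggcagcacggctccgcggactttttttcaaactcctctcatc
The letters searched on both strands were GACCACCCA, the core of the sequence that Gli proteins bind, and the CCACCCA within it. Neither was found in these windows or in those of Ptch1, Smo, Sufu and Gli3, the 6 members with an entry among 7. GACCACCCA occurs in 0.225% and CCACCCA in 8.11% of the 32851 RefSeq promoters of the same length. The GC content was 76.0% for Hhip and 67.2% for Gli2.

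**Figure D1:**
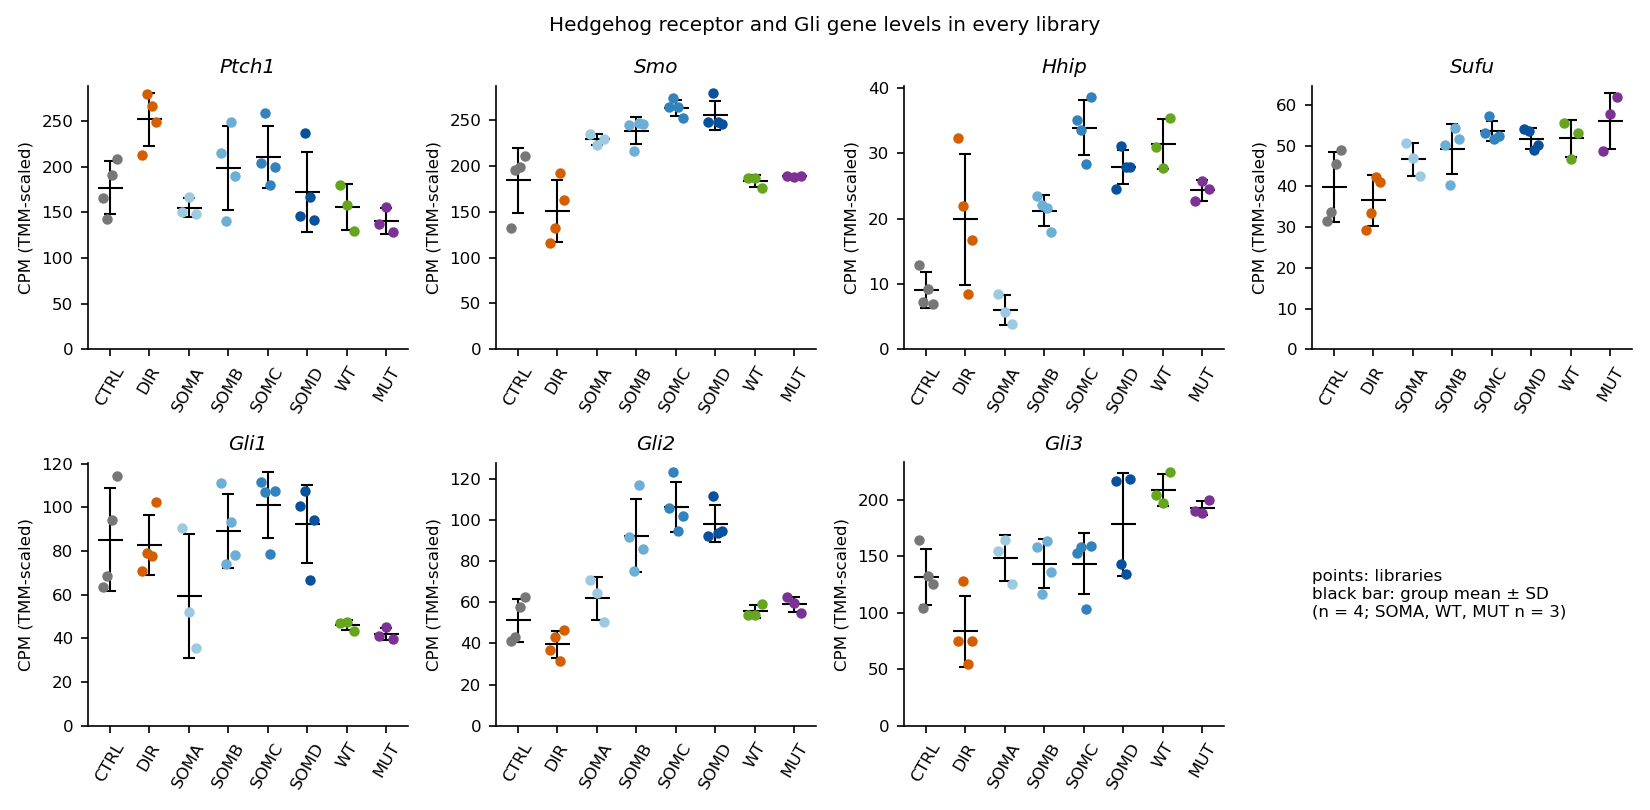
Levels of the 7 genes in CPM (vertical axes, from 0) in every library of the 8 groups (horizontal axes). Coloured points are libraries and black bars the group mean ± SD. Hhip was lowest in SOMA, between 3.89 and 8.48 CPM, and in CTRL, between 6.95 and 13.0 CPM.

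Set per length of exon, Smo, the transducer, was the most abundant of the 7 transcripts in every group, and Hhip the least abundant. Group means of Smo ran from 26.8 CPM per kb in DIR to 46.9 CPM per kb in SOMC, with no overlap with the next gene in any group. Group means of Hhip ran from 0.662 CPM per kb in SOMA to 3.73 CPM per kb in SOMC, below every library of the other 6 genes in the same group. Sufu ranked sixth in all groups, at 4.75 to 7.30 CPM per kb. Gli1, Gli2, Gli3 and Ptch1 changed places in between. In SOMB, SOMC and CTRL, Gli1 had the second highest mean, at 17.9, 20.3 and 17.0 CPM per kb, while in MUT and WT Gli3 had it, at 20.1 and 21.8 CPM per kb, with no overlap with the third. Gli3 was also second in SOMA and SOMD, at 15.5 and 18.6 CPM per kb, with overlap with the third. In DIR the second place was that of Ptch1, at 17.8 CPM per kb, whose range overlapped that of Gli1. The exon length is the union over annotated transcripts, so a gene with many alternative ends, as annotated, appears lower than its main transcript would.

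**Figure D2:**
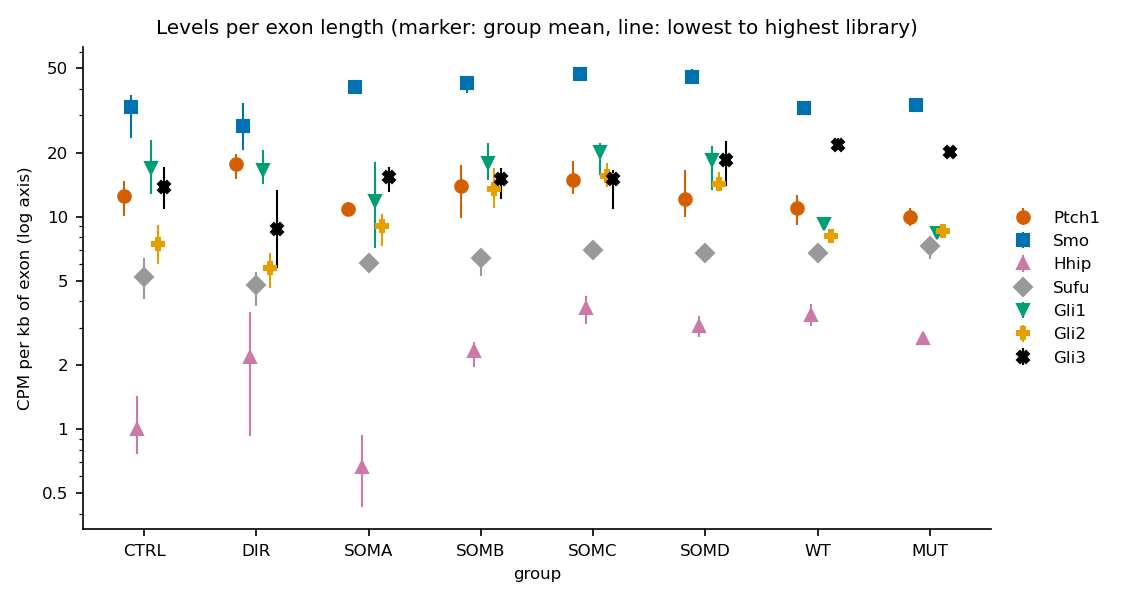
Level per kb of exon (vertical axis, log scale) in the 8 groups (horizontal axis). Markers are group means and lines join the lowest and highest library. Smo stood above and Hhip below the other 5 genes in all groups.

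Along the somites, which of these genes changed between presomitic mesoderm and older somites was asked by setting each SOM group against the one before it, and the oldest (SOMD) against SOMA. Hhip and Gli2 rose between SOMA and SOMB, Hhip 3.43-fold and Gli2 1.48-fold, and stayed above SOMA in SOMD. Ptch1, Smo, Sufu, Gli1 and Gli3 did not pass the test at any step. In these bulk samples fewer cells of a type and less RNA per cell cannot be told apart.

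Hhip, which binds Hedgehog ligand at the cell surface, was at 8.48, 5.66 and 3.89 CPM in SOMA1, SOMA3 and SOMA4. It was at 23.4, 22.0, 21.6 and 17.9 CPM in SOMB1 to SOMB4, so that every SOMB library was above every SOMA library. In SOMC it reached 35.1, 33.6, 28.4 and 38.5 CPM and in SOMD 24.6, 31.0, 27.9 and 27.8 CPM. The log2 fold change (edgeR's quasi-likelihood test, with Benjamini-Hochberg adjustment over the genes tested) was 1.78 ± 0.19 (SE) in SOMB against SOMA, with adjusted p = 2.30e-05. It was 2.18 ± 0.20 in SOMD against SOMA, with adjusted p = 1.02e-06. SOMC lay above SOMB in every library, by 0.68 ± 0.16 (adjusted p = 0.0596), which did not pass the threshold of 0.05 with edgeR and passed it with DESeq2 (adjusted p = 0.00441). With SOMC1 and SOMC4, and SOMD1 and SOMD4, each summed to 1 library, this step was 0.64 (edgeR adjusted p = 0.252). SOMD against SOMC gave -0.29 ± 0.16 (adjusted p = 0.589), and the ranges overlapped.

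Gli2, the main activator among the Gli factors, was at 71.0, 64.4 and 50.3 CPM in SOMA1, SOMA3 and SOMA4. In SOMB1 to SOMB4 it was at 91.6, 75.3, 117 and 85.7 CPM, again with every library above those of SOMA. In SOMC it was at 106, 123, 94.6 and 102 CPM and in SOMD at 92.4, 112, 93.9 and 94.8 CPM. SOMB exceeded SOMA by a log2 fold change of 0.57 ± 0.15 (edgeR adjusted p = 0.0216) and SOMD exceeded SOMA by 0.67 ± 0.15 (adjusted p = 0.00380). SOMB and SOMD share the SOMA libraries in these comparisons. Gli2 passed the first step without any 1 library except SOMA4 (adjusted p = 0.100) or SOMB3 (adjusted p = 0.0545), and it did not pass among the 9 SOM libraries with the lower no-feature share, where the difference was 0.69 (adjusted p = 0.114). Within those 9 libraries the group means differed by 0.67 and between the single pair with the higher share by 0.36 on the log2 scale. SOMC against SOMB gave 0.21 ± 0.13 (adjusted p = 0.531) and SOMD against SOMC -0.11 ± 0.13 (adjusted p = 0.955).

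Gli1, a target and activator of the pathway, spread widely in SOMA, at 90.7, 52.2 and 35.5 CPM in SOMA1, SOMA3 and SOMA4. SOMB held 111, 74.2, 93.4 and 78.1 CPM, SOMC 112, 107, 78.7 and 108 CPM, and SOMD 100.4, 108, 66.7 and 94.0 CPM. SOMA1 thus lay within the range of the older groups, while SOMA3 and SOMA4 lay below every SOMB, SOMC and SOMD library. SOMB against SOMA gave 0.57 ± 0.25 (edgeR adjusted p = 0.221) and SOMD against SOMA 0.63 ± 0.25 (adjusted p = 0.0980), neither past the threshold. Without SOMA1 the differences were 1.03 (adjusted p = 0.00903) and 1.08 (adjusted p = 0.00298). SOMD against SOMA also passed without SOMD3 (0.76, adjusted p = 0.0484). It passed among the libraries with the lower no-feature share (0.99, adjusted p = 0.0451) and with that share as a term (0.61, adjusted p = 0.0103). SOMB against SOMA passed with the share as a term (0.82, adjusted p = 0.00431). SOMA1 was the only SOMA library with the higher share, so these settings are not separate from leaving it out. Log2 group means of SOMD and SOMB exceeded SOMA by 0.098 and 0.29 in the higher-share libraries. In the others they did so by 0.96 and 0.90. With the replicate number as a block SOMD against SOMA passed (0.68, adjusted p = 0.0421). Same-numbered libraries of these 2 groups did not all deviate together (r of -0.209 to 0.331). SOMA1 also had the highest levels of Hhip and Gli2 in SOMA, and held Pax1, the sclerotome gene, at 5.57 CPM, against 0.955 and 0.377 CPM in SOMA3 and SOMA4. The part of these values in the result was not tested.

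Ptch1, the receptor, was at 150.4, 167 and 148 CPM in SOMA and at 216, 140.4, 249 and 190.2 CPM in SOMB. SOMC held 204, 259, 181 and 199.6 CPM, and SOMD 146, 237, 167 and 142 CPM. The groups overlapped at every step. SOMB against SOMA gave 0.36 ± 0.19 with a 95% interval of -0.06 to 0.77 (edgeR adjusted p = 0.361), SOMC against SOMB 0.09 ± 0.18 (adjusted p = 0.840), and SOMD against SOMC -0.28 ± 0.18 (adjusted p = 0.685).

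Smo, which Ptch1 holds inactive, was at 235, 223 and 229.7 CPM in SOMA and at 244, 216, 247 and 246 CPM in SOMB. SOMC held 265, 274, 264 and 253 CPM and SOMD 248.3, 279, 248.4 and 246 CPM. SOMC was above SOMB in every library, by 0.15 ± 0.06 (edgeR adjusted p = 0.339), and SOMD was above SOMA in every library, by 0.16 ± 0.07 (adjusted p = 0.101). The 95% interval of the latter, 0.02 to 0.30, is narrow because the replicates lay close together.

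Sufu, which binds Gli proteins in the cytoplasm, was between 40.4 and 57.3 CPM in all 15 SOM libraries, and its differences ran from -0.05 to 0.15 on the log2 scale, none past the threshold. Gli3, the main repressor, was at 154.5, 165 and 126 CPM in SOMA, 158, 117, 164 and 136 CPM in SOMB, 153, 158, 104 and 160 CPM in SOMC, and 217, 143, 134 and 219 CPM in SOMD. SOMD1 and SOMD4, the nearly identical pair, held the 2 high SOMD values. SOMB against SOMA was -0.05 ± 0.19 (95% interval -0.46 to 0.36) and SOMD against SOMC 0.32 ± 0.18 (edgeR adjusted p = 0.603), which was 0.25 with the pair summed.

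By count, 2 of 7 members passed in SOMB against SOMA, both higher, where 4.13% of all 13790 genes tested passed as higher and 8.67% in either direction. In SOMD against SOMA the same 2 of 7 passed as higher, beside 10.8% of all genes higher and 19.8% in either direction. In SOMC against SOMB 0 of 7 passed with edgeR (0.827% of all genes in either direction), and 2 of 7 had an unadjusted p under 0.05 (12% of all genes). With DESeq2 1 of 7 passed there, beside 285 of 14453 genes. In SOMD against SOMC 0 of 7 passed with edgeR (2.34% of all genes), and 0 of 7 had an unadjusted p under 0.05 (11.3% of all genes). With DESeq2 0 of 7 passed there, beside 492 of 15951 genes. The libraries did not overlap for 2 members in SOMB against SOMA, 2 in SOMC against SOMB, 0 in SOMD against SOMC and 3 in SOMD against SOMA, beside 16%, 6.1%, 7.71% and 28.4% of all genes. Over the whole course, a test of any difference among the 4 levels called Hhip (adjusted p = 1.77e-06) and Gli2 (adjusted p = 0.00587), 2 of 7 members beside 19.8% of all genes. Smo came next, with adjusted p = 0.0891 by edgeR and 0.0403 by DESeq2's likelihood ratio test. The median log2 fold change of the 7 members in SOMB against SOMA was 0.36, beside 0.01 over all genes tested.

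**Figure D3:**
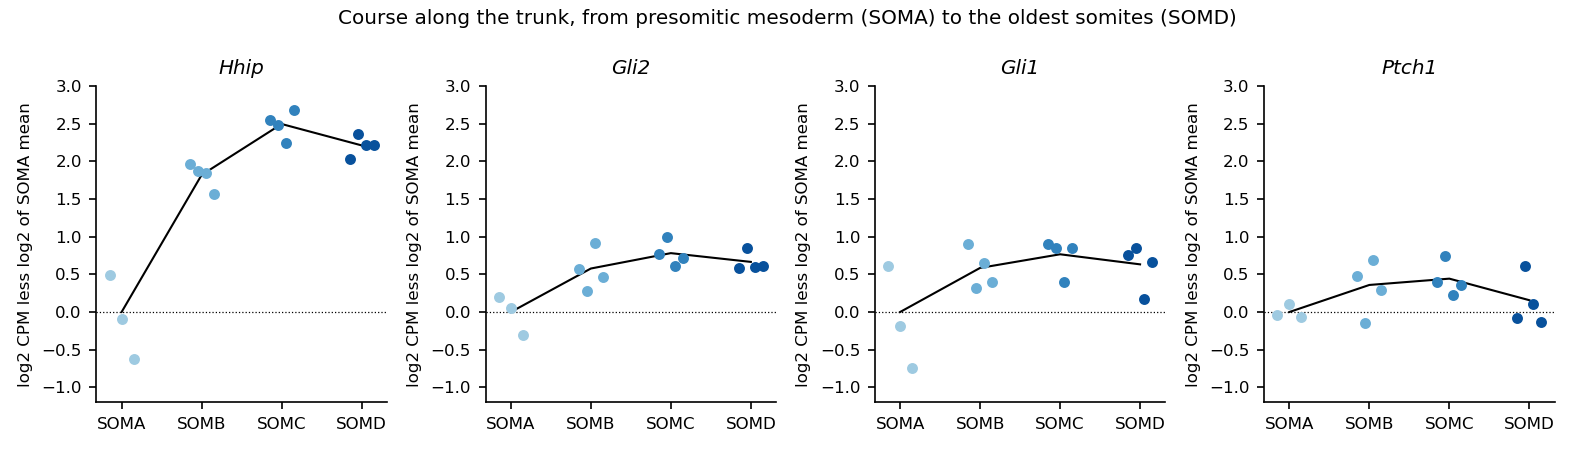
Level of Hhip, Gli2, Gli1 and Ptch1 in the 4 SOM groups, as log2 CPM less the log2 of the SOMA mean (vertical axes). Points are libraries and the black line joins group means. All Hhip points of SOMB, SOMC and SOMD lie above those of SOMA, and the SOMA points of Gli1 reach from 35.5 to 90.7 CPM before the log.

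In culture, the response to LDN and SAG together was read from DIR against CTRL. None of the 7 genes passed the test. The largest differences were of Hhip, 2.16-fold higher in DIR, of Ptch1, 1.41-fold higher, and of Gli3, at 0.627 of the CTRL level. Gli1, often read as a measure of Hedgehog signalling, was at 0.959 of the CTRL level. Of all 14190 genes tested, 0.747% passed in either direction, 0.303% higher and 0.444% lower. Of the members, 0 of 7 passed with edgeR. At an unadjusted p under 0.05 there were 3 of 7 (Ptch1, Hhip and Gli3), beside 15.3% of all genes. With DESeq2 0 of 7 passed, beside 499 of 15236 genes.

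Ptch1 was at 166, 142, 191 and 209 CPM in CTRL1 to CTRL4 and at 213, 280, 266 and 249 CPM in DIR1 to DIR4. All 4 DIR libraries lay above all CTRL libraries, the lowest DIR value being close to the highest of CTRL. Ptch1 was the 1 member of 7 whose groups did not overlap, beside 9.27% of all genes in either direction. The log2 fold change was 0.49 ± 0.15, with a 95% interval of 0.17 to 0.82 (edgeR adjusted p = 0.191). It was 0.56 among the libraries with the higher multi-mapped share and 0.53 among the others. With all 29 libraries in 1 fit, whose estimate of spread also draws on the SOM and trunk libraries, the difference was 0.51 ± 0.16 (adjusted p = 0.0488). In that fit 1482 of 15223 genes passed in DIR against CTRL, against 106 of 14190 in the main fit.

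Hhip was at 13.0, 7.18, 9.25 and 6.95 CPM in CTRL1 to CTRL4 and at 32.3, 21.9, 8.42 and 16.8 CPM in DIR1 to DIR4. In DIR3 it lay within the CTRL range, while the other 3 DIR libraries lay above it. The log2 fold change was 1.11 ± 0.38, with a 95% interval of 0.27 to 1.95 (edgeR adjusted p = 0.236). With all 29 libraries in 1 fit it was 1.13 (adjusted p = 0.00889), where 1482 of 15223 genes passed. DIR3 was also lowest of DIR in Pax1, at 8.90 CPM against 18.1 to 37.0 CPM in the other 3, and in Pax9, at 1.02 CPM. With 1 library left out the Hhip difference ran from 0.77 to 1.37, with adjusted p from 0.0966 (without DIR3) to 0.591 (without CTRL4). It was 0.99 among the libraries with the higher multi-mapped share and 0.57 among the others.

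Gli3 was at 164, 104, 133 and 126 CPM in CTRL1 to CTRL4 and at 75.4, 128, 55.1 and 75.4 CPM in DIR1 to DIR4. In DIR2 it lay within the CTRL range, and in the other 3 DIR libraries below it. The log2 fold change was -0.67 ± 0.25, with a 95% interval of -1.23 to -0.12 (edgeR adjusted p = 0.267). It was -0.65 with all 29 libraries in 1 fit (adjusted p = 0.0381), where 1482 of 15223 genes passed. Among the 5 cultures with the lower multi-mapped share it was -0.90 (adjusted p = 0.0210), where 254 of 14296 genes passed. Gli2 was at 41.0, 43.3, 57.7 and 62.8 CPM in CTRL and at 37.0, 42.9, 31.6 and 46.5 CPM in DIR, with overlap. It gave -0.39 ± 0.18 (adjusted p = 0.340).

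Gli1 was at 63.6, 68.5, 94.1 and 114 CPM in CTRL and at 71.0, 79.0, 77.9 and 103 CPM in DIR, so that the DIR libraries lay within the range of CTRL. The log2 fold change was -0.06 ± 0.20, with a 95% interval of -0.51 to 0.39 (edgeR adjusted p = 0.911). It turned to 0.12 without CTRL4, 0.01 without DIR1 and 0.18 with the multi-mapped share as a term. Smo was at 132, 195, 199 and 211 CPM in CTRL and at 116, 132, 193 and 163 CPM in DIR, a difference of -0.31 ± 0.19 (adjusted p = 0.461). Its lowest values, in CTRL1, DIR1 and DIR2, were in the 3 cultures with the higher multi-mapped share, and the difference was -0.09 and -0.19 within the 2 sets of cultures. Sufu was between 29.3 and 49.0 CPM in all 8 cultures and gave -0.14 ± 0.19 (adjusted p = 0.739).

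Beside these values, 5 of 7 lateral plate markers fell in DIR with edgeR (6 of 7 passed with DESeq2), where their summed level was 71.0 to 136 CPM, against 189 to 324 CPM in CTRL. Of the 7 genes of culture stress 2 (Fos and Fosb) fell with edgeR, and Egr1 also passed with DESeq2, with summed levels of 80.0 to 119 CPM in DIR and 142 to 223 CPM in CTRL. The neural tube markers overlapped, at 43.0 to 92.3 CPM in DIR and 40.7 to 117 CPM in CTRL, with 1 of 8 tested (Olig2) higher by edgeR and 2 (Olig2 and Sox2) called by DESeq2. Of the 9 paraxial mesoderm markers 0 passed with edgeR, and 1 (Pax3) had an unadjusted p under 0.05 and passed with DESeq2. Of the 6 erythroid markers 5 were tested, and the log2 fold change of all 5 was above 0, with a median of 1.19. With edgeR 0 of 5 passed, 3 had an unadjusted p under 0.05 and DESeq2 called 2 (Hba-x and Hbb-bh1). The erythroid markers summed to 19.7 to 65.9 CPM in DIR and 11.99 to 20.6 CPM in CTRL, which overlapped, and 1 of the 6 was at 0 in all of these libraries. Their part in the differences of the Hedgehog genes was not tested. The sclerotome gene Pax1, which the labelled treatment is meant to induce, rose from 1.33 ± 0.47 to 20.6 ± 11.8 CPM, a log2 fold change of 3.93 ± 0.45 (edgeR adjusted p = 0.00529).

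**Figure D4:**
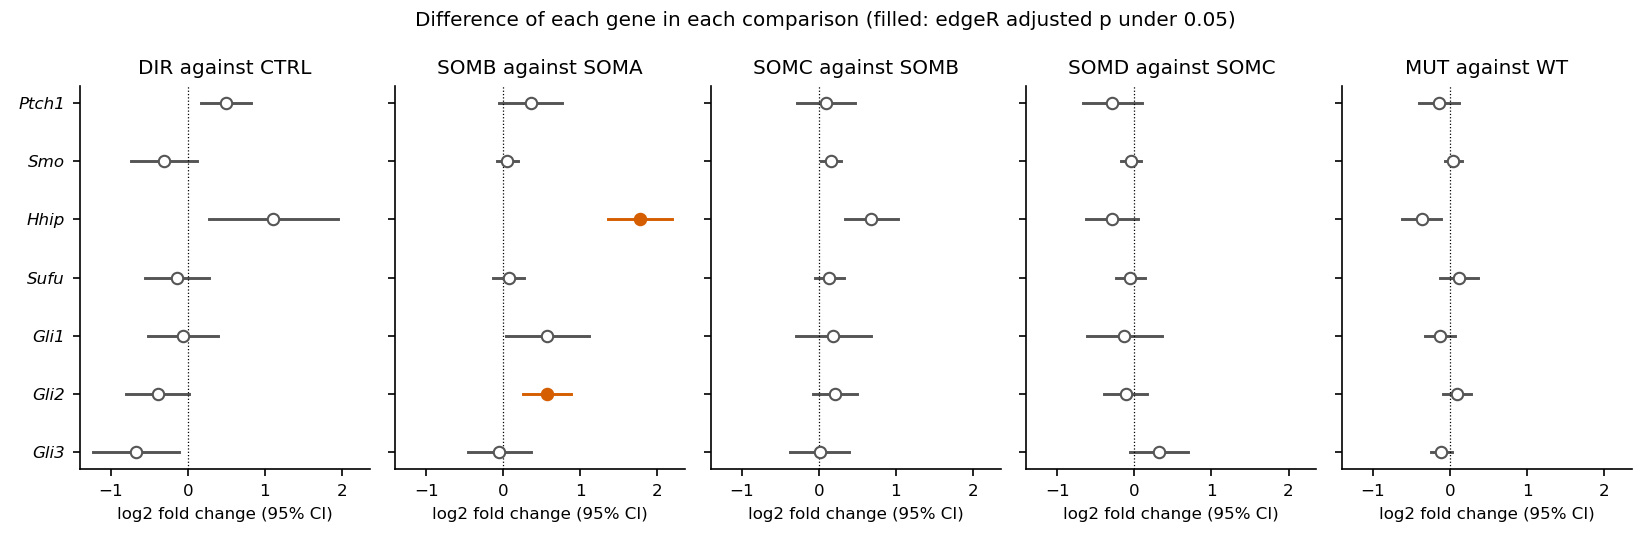
Log2 fold change of each gene (horizontal axes, circles) with its 95% interval (lines) in 5 comparisons. Filled circles passed an adjusted p of 0.05, which was so for Hhip (1.78) and Gli2 (0.57) in SOMB against SOMA.

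Whether the response in culture differed from the first step along the somites was tested as the difference of the 2 log2 fold changes, DIR against CTRL less SOMB against SOMA, in a fit of all 29 libraries. The estimate of spread in that fit is shared by cultured, SOM and trunk libraries. For DIR against CTRL alone it called 1482 of 15223 genes, against 106 of 14190 in the main fit. Gli2 differed: it was 0.57 higher in SOMB than in SOMA and 0.39 lower in DIR than in CTRL, a difference of -0.95 ± 0.21 with a 95% interval of -1.39 to -0.51 (edgeR adjusted p = 0.00717). This was 1 of 7 members, lower, beside 2.38% of all 15223 genes tested as lower and 4.97% in either direction. Gli2 still passed with each of the 15 libraries left out in turn, with adjusted p of 0.00228 to 0.0362. For Gli1 the difference was -0.62 ± 0.31 (adjusted p = 0.290), for Gli3 -0.61 ± 0.29 (adjusted p = 0.267), for Hhip -0.66 ± 0.39 (adjusted p = 0.375) and for Smo -0.35 ± 0.18 (adjusted p = 0.294). Gli1 passed without SOMA1 (-1.09, adjusted p = 0.0247), Gli3 without DIR2 (-0.89, adjusted p = 0.0385) and Smo without CTRL1 (-0.49, adjusted p = 0.0398). Ptch1 gave 0.15 ± 0.24, with a 95% interval of -0.35 to 0.65 (adjusted p = 0.793). Of the 6 other surface receptors 3 passed as lower by the same measure. These were Boc, Cdon and Gas1, which help ligand reach Ptch1, at -1.94, -1.41 and -1.81 (edgeR adjusted p = 8.21e-06, 9.15e-05 and 9.10e-05). In DIR against CTRL alone they gave -0.93, -0.21 and -0.93, and only Boc passed, so these values also hold their rise in SOMB over SOMA.

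In trunk tissue of mutant and wild-type embryos no member passed the test. The largest difference was that of Hhip, at 0.777 of the WT level in MUT. Of all 14485 genes 0.338% passed, 0.331% higher and 0.0069% lower. Of the members, 0 of 7 passed with edgeR. At an unadjusted p under 0.05 there was 1 of 7 (Hhip), beside 15.5% of all genes. With DESeq2 0 of 7 passed, beside 701 of 9732 genes. The groups did not overlap for 2 of 7 members, Hhip and Smo, beside 22.2% of all genes.

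Hhip was at 22.6, 25.7 and 24.5 CPM in MUT1 to MUT3 and at 31.0, 27.7 and 35.3 CPM in WT1 to WT3, with every MUT library below every WT library. The log2 fold change was -0.36 ± 0.11, with a 95% interval of -0.62 to -0.11 (edgeR adjusted p = 0.158, DESeq2 adjusted p = 0.0606). Smo was at 189.4, 188 and 189.3 CPM in MUT and at 187, 187.4 and 176 CPM in WT, a difference of 0.05 ± 0.05 (edgeR adjusted p = 0.740). Gli3 was at 190.2, 189 and 200.3 CPM in MUT and at 204, 198 and 225 CPM in WT, which overlapped, and gave -0.11 ± 0.06 (adjusted p = 0.449). Gli1 was at 41.0, 45.1 and 39.7 CPM in MUT and at 47.1, 47.5 and 43.3 CPM in WT (-0.13 ± 0.09, adjusted p = 0.541), and Gli2 at 62.4, 59.8 and 54.9 CPM in MUT and at 53.9, 53.7 and 59.2 CPM in WT (0.09 ± 0.08, adjusted p = 0.679). Ptch1 gave -0.15 ± 0.11 and Sufu 0.12 ± 0.11. Xist, expressed from the inactive X chromosome of females, was at 1801 and 1810 CPM in MUT2 and MUT3 and at 2.14 CPM in MUT1 and 2.98 to 10.8 CPM in WT. With the level of Xist as a term the Hhip difference was -0.47 (adjusted p = 0.239). With edgeR 0 of the 8 cell type marker lists, of 5 to 10 markers tested each, held a gene that passed between MUT and WT. At an unadjusted p under 0.05 there were 2 paraxial mesoderm markers (Meox1 and Tcf15), 1 of endothelium (Tek) and 1 of neural crest (Foxd3), and DESeq2 called 1 gene, Tcf15, which was 1.66-fold higher in MUT without overlap (edgeR adjusted p = 0.0537).

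Across the 8 groups each gene had its own order of levels. These are described without a test between the sorted, cultured and trunk libraries, which differ in how RNA was obtained. The trunk libraries also differ from the others in multi-mapped share (38.8 to 40.6% against 15.9 to 25.4%). Hhip was highest in SOMC (33.9 ± 4.21 CPM), followed by WT (31.3 ± 3.82), SOMD (27.8 ± 2.64), MUT (24.3 ± 1.55), SOMB (21.2 ± 2.37), DIR (19.9 ± 10.0), CTRL (9.09 ± 2.78) and SOMA (6.01 ± 2.31). The ranges of all neighbours in this order overlapped. Gli2 ran from SOMC (106 ± 12.2 CPM) through SOMD (98.2 ± 9.01) and SOMB (92.4 ± 17.7) to SOMA (61.9 ± 10.6), MUT (59.0 ± 3.79), WT (55.6 ± 3.09), CTRL (51.2 ± 10.7) and DIR (39.5 ± 6.58). Only SOMB and SOMA did not overlap among these neighbours. Gli1 ran from SOMC (101 ± 15.1 CPM) through SOMD (92.2 ± 17.9), SOMB (89.3 ± 16.9), CTRL (85.1 ± 23.6), DIR (82.6 ± 13.8) and SOMA (59.5 ± 28.3) to WT (46.0 ± 2.33) and MUT (42.0 ± 2.80), with overlap at each place.

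Gli3 had another order, with WT (209 ± 14.1 CPM) and MUT (193 ± 6.31) above SOMD (178 ± 46.0), SOMA (148 ± 20.4), SOMC (143.7 ± 26.7), SOMB (143.6 ± 21.6), CTRL (132 ± 25.0) and DIR (83.6 ± 31.3), and overlap at each place. Ptch1 was the 1 member highest in DIR (252 ± 29.02 CPM), followed by SOMC (211 ± 33.7), SOMB (199 ± 45.9), CTRL (177 ± 29.1), SOMD (173 ± 43.9), WT (156 ± 25.0), SOMA (155 ± 10.3) and MUT (141 ± 13.8), with overlap at each place. Smo was higher in every SOM group (229 to 264 CPM) than in MUT (189 ± 0.621), CTRL (184 ± 35.5), WT (184 ± 6.26) and DIR (151 ± 33.9), and only SOMA and MUT did not overlap among neighbours. Sufu means lay between 36.6 CPM in DIR and 56.1 CPM in MUT, with overlap at each place.

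The transcripts of the Gli factors were set against each other as ratios of levels per kb within each library, without a test. Because the Gli3 repressor is cut from the protein, transcript ratios do not show the balance of activator to repressor. Gli1 over Gli3 was 0.759 ± 0.321 in SOMA, 1.19 ± 0.120 in SOMB, 1.36 ± 0.0797 in SOMC and 1.03 ± 0.282 in SOMD. In CTRL it was 1.28 ± 0.414 and in DIR 2.08 ± 0.722, with ranges of 0.743 to 1.75 and 1.18 to 2.71 that overlapped. In MUT and WT it was 0.418 ± 0.0392 and 0.425 ± 0.0484, below every sorted or cultured library. The part of the higher multi-mapped share of the trunk libraries in this was not tested. Gli2 over Gli3 went from a mean of 0.582 in SOMA, with a highest library of 0.642, to 0.897 in SOMB, with a lowest library of 0.808. It was 1.05 ± 0.166 in SOMC and 0.816 ± 0.254 in SOMD, whose lowest library, at 0.594, lay within the range of SOMA. In CTRL and DIR it was 0.558 ± 0.149 and 0.703 ± 0.173, with overlap, and in MUT and WT 0.428 ± 0.0396 and 0.372 ± 0.00673. Gli1 over Gli2 was 2.13 to 2.50 in CTRL and 2.53 to 3.39 in DIR, above every other library, of which the highest was 1.76 in SOMA1.

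**Figure D5:**
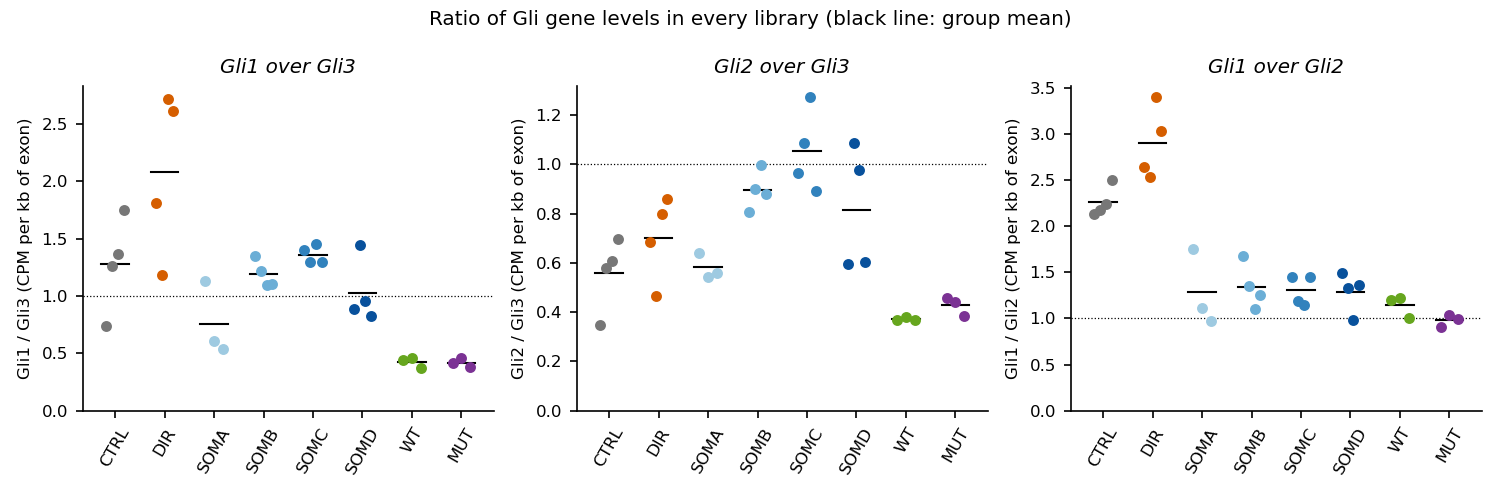
Ratio of Gli gene levels per kb of exon (vertical axes, from 0) in every library of the 8 groups. Points are libraries, black lines group means and the dotted line marks equal levels. Gli1 over Gli3 lies between 0.370 and 0.462 in the trunk libraries.

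Among the other genes of the pathway, the ligand Shh was at 0.890 to 3.70 CPM in all sorted and cultured libraries and at 33.1 to 41.5 CPM in the trunk libraries. Foxa2, a marker of the floor plate and notochord that make Shh, was at 0.358 to 2.45 CPM in the former and at 6.65 to 13.7 CPM in the latter. The summed level of the 7 floor plate and notochord markers overlapped, at 93.1 to 289 CPM and 227 to 280 CPM. Of these markers, Ntn1 was at 86.7 to 284 CPM and 163 to 222 CPM, and Noto reached 2.18 CPM and 0.902 CPM. In DIR against CTRL 0 of 6 ligand and release genes, 1 of 6 other surface receptors, 0 of 13 ciliary and cytoplasmic transducers and 0 of 9 genes of Gli processing passed with edgeR. At an unadjusted p under 0.05 (15.3% of all genes) these counts were 3 (Disp1, Scube1 and Scube3), 2, 4 and 0. DESeq2 called 3 (the same ligand release genes), 2 (Boc and Gas1), 0 and 0, beside 499 of 15236 genes. The receptor was Boc, which fell from 35.9 ± 7.54 to 19.0 ± 2.25 CPM (log2 fold change -0.93 ± 0.17, edgeR adjusted p = 0.0487). Boc did not pass with any 1 library other than CTRL1 left out, with adjusted p up to 0.171 (without CTRL3), nor with RLE size factors (adjusted p = 0.0501) or unscaled library totals (adjusted p = 0.0506). Of 16 other reported targets tested, some of which are also surface receptors, 1 rose (Pax1) and 1 fell (Boc) with edgeR, 7 had an unadjusted p under 0.05, and DESeq2 called 4 (Boc, Gas1, Pax1 and Sfrp2).

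In SOMB against SOMA the same lists gave 0 of 6, 3 of 6, 0 of 13 and 0 of 9 with edgeR, and 0, 3, 0 and 0 with DESeq2. Of all genes tested 8.67% passed this step with edgeR, and 1415 of 15576 passed with DESeq2. The 3 receptors, Cdon (1.21 ± 0.10, edgeR adjusted p = 2.12e-06), Boc (1.01 ± 0.18, adjusted p = 0.00192) and Gas1 (0.89 ± 0.15, adjusted p = 0.00142), rose in the step at which Hhip and Gli2 rose. Kif7, a ciliary regulator of Gli proteins, had means of 32.9 ± 4.29 CPM in SOMA and 32.1 ± 5.47 CPM in SOMB. Of 17 other reported targets 8 rose and 2 (Foxc2 and Mycn) fell. Pax1 (4.51 ± 0.52, adjusted p = 3.48e-05), Pax9 (2.39 ± 0.52, adjusted p = 0.00713) and Nkx3-2 (2.58 ± 0.38, adjusted p = 0.000314), genes of the sclerotome, were among those that rose. Of the neural tube markers 4 of 9 tested rose in the same step with edgeR (5 passed with DESeq2), and the summed level was 76.6 to 98.2 CPM in SOMA and 89.5 to 164 CPM in SOMB, with no marker at 0 in all libraries. Of the 5 neural crest markers all had a log2 fold change above 0, with a median of 0.80, of which 1 (Ets1) rose with edgeR and 2 (Ets1 and Sox10) passed with DESeq2, and their summed level was 61.5 to 105 CPM in SOMA and 116 to 151 CPM in SOMB. Of the lateral plate markers 1 of 7 (Isl1) fell with edgeR, and of the floor plate and notochord markers 1 of 5 tested (Noto) fell. The part of these markers in the result was not tested. Between MUT and WT 0 of 8, 0 of 6, 0 of 13, 0 of 9 and 0 of 17 genes of the 5 lists passed with edgeR. At an unadjusted p under 0.05 (15.5% of all genes) there were 0, 0, 1, 3 and 0. DESeq2 called 0, 0, 1 (Dync2h1), 2 (Csnk1a1 and Gsk3b) and 0, beside 701 of 9732 genes.

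The genes whose pattern was most like that of each member were sought by the Pearson r of log2(CPM + 1) over the 29 libraries, among the 10495 genes whose mean reached 5 CPM. These libraries share group, preparation and in part depth, so that r is only a description. For Hhip they were Parva (0.938), Slc1a3 (0.930) and Pax1 (0.912), and within the 15 SOM libraries r was 0.958, 0.948 and 0.948. For Gli2 they were Klhl29 (0.935), Plxnb2 (0.934) and Socs3 (0.932). For Gli1 they were Slc9a5 (0.881), Lepre1 (0.870) and Flnc (0.868), and for Gli3 Kdm2a (0.930), Zfp462 (0.925) and Ash1l (0.909). Smo was most like Sphk2 (0.973), Gpsm1 (0.969) and Lmnb2 (0.967), and Sufu like Ephb2 (0.935), Caskin2 (0.927) and Ahdc1 (0.912). Ptch1 had the lowest values, with Spsb1 (0.769), Rad51l3 (0.761) and Cgnl1 (0.750). No member was among the 3 genes most like another member.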

How the data were processed

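Gene counts of 29 libraries were used. The authors deposited whole-number counts per gene, with 5 summary lines per library that were left out here; per the labels' protocols, libraries were made with the TruSeq RNA v2 kit from Trizol extracts, and the submitters' processing notes name mm10, HTSeq 0.6, TopHat2 2.0.9, DESeq2 1.10 and Cufflinks. For the annotation and strand setting the sources used here give nothing. Symbols were matched to GENCODE M21. Groups came from titles and sample descriptions.

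Low genes were removed by filterByExpr (a count of 10, a total of 15), TMM factors were computed, and tests used edgeR 4.0.16 under R 4.3.3 (quasi-likelihood F test, Benjamini-Hochberg over all genes, threshold 0.05); the SOM libraries, DIR with CTRL, and MUT with WT were fitted separately. The tests were checked on simulated data with changes larger than those of most members, so the power to find smaller changes was not measured. Precision is limited by 3 or 4 libraries per group. DESeq2 1.42.0, other scalings, no filter, technical terms, summed libraries, a replicate block and each library left out were alternatives. The members and gene lists were chosen with earlier results of these data known. The rule for named genes took all 7 members, 9 pathway and sclerotome genes, up to 3 further list genes per comparison past the threshold with the lowest p, and the 3 genes most like each member. Some of these genes are not reported here. Other genes named beside a count were chosen after their values were seen. Same-numbered libraries deviated together in every pair (r of 0.398 to 0.455 in SOMB with SOMA, 0.402 to 0.506 in SOMD with SOMC), which rests on the data alone. Figures were drawn with matplotlib 3.10.9.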

Additional observations from a re-analysis of the deposited data

Results flagged for a closer look

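In groups of 4 libraries, 1 library stood apart from the other 3 by more than Dixon's 95% limit in 5 of the 35 combinations of gene and group tested. Chance alone flags about 1 in 20 where libraries are independent. Because SOMC and SOMD each hold a nearly identical pair, and the genes share libraries, that rate is only a rough guide here. Smo was lowest in SOMB2, at 216 CPM, and highest in SOMD2, at 279 CPM. Gli1 was lowest in SOMC3, at 78.7 CPM, and so was Gli3, at 104 CPM. Gli2 was highest in SOMD2, at 112 CPM. Groups of 3 libraries (SOMA, MUT and WT) were not tested in this way.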

How the results depend on the processing

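Hhip and Gli2 in SOMD against SOMA, Hhip in SOMB against SOMA, and Gli2 in the difference between the culture response and the first somite step kept direction and threshold under all alternatives run. The members called numbered 3 in DIR against CTRL with all 29 libraries in 1 fit, where 1482 of 15223 genes passed. They numbered 1 among cultures with the lower multi-mapped share (254 of 14296 genes), an alternative chosen after seeing the data, and 0 otherwise. They numbered 1 in SOMC against SOMB with DESeq2 (285 of 14453 genes). They numbered 1 in SOMB against SOMA (763 of 13647 genes) and in the course (1050 of 13647 genes) among the 9 libraries with the lower no-feature share. That setting was also chosen after seeing the data and left fewer libraries. Leaving out 1 library gave 1 to 3 called in SOMB against SOMA. It was 1 without SOMA4 (796 of 13926 genes) or SOMB3 (1146 of 13797 genes). In the difference of responses it gave 1 to 2. It was 2 without CTRL1 (1476 of 15158 genes), DIR2 (863 of 15155 genes) or SOMA1 (788 of 15438 genes).

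Some small differences reversed. In DIR against CTRL, Sufu was 0.078 and Gli1 0.18 with the multi-mapped share as a term, and Gli1 lay between -0.18 and 0.12 without 1 library (0.12 without CTRL4, 0.0074 without DIR1). With the no-feature share as a term, Gli3 was 0.079 in SOMB against SOMA, and Gli1 -0.061 and Gli3 -0.18 in SOMC against SOMB. Gli3 was -0.032 in SOMC against SOMB with the nearly identical libraries summed, and -0.078 there and -0.065 in SOMD against SOMA among the libraries with the lower no-feature share. Without 1 library, Gli3 lay between -0.15 and 0.045 in SOMB against SOMA and between -0.082 and 0.13 in SOMC against SOMB, and Ptch1 between -0.048 and 0.22 in SOMC against SOMB and between -0.031 and 0.25 in SOMD against SOMA. Sufu in MUT against WT was -0.055 with Xist as a term. The cause was not tested.

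With the replicate number as a block, Gli1 passed in SOMD against SOMA (0.68, adjusted p = 0.0421), and no other call on a member changed. Same-numbered libraries did not all deviate together in DIR with CTRL (r of -0.589 to 0.766), SOMC with SOMB (-0.277 to 0.437), SOMD with SOMA (-0.209 to 0.331) and MUT with WT (0.0033 to 0.327). The block moved the genes called from 106 to 256 in DIR against CTRL, from 114 to 179 in SOMC against SOMB and from 49 to 328 in MUT against WT. DESeq2 called 499 of 15236, 285 of 14453 and 701 of 9732 genes in these comparisons. Levels of Hhip in SOMA rest on as few as 62 counts, those of the other genes on at least 565.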
